A study of Mus musculus with 2 samples.

Results

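The 34 genes described here encode the enzymes and regulators with which cells make cholesterol and fatty acids. They were chosen by symbol as a list of sterol and fatty acid synthesis genes, with earlier results of these data known. All of them were found among the 32285 genes of the deposited count matrices. Single-cell RNA sequencing had been run on lumbar (L4 and L5) dorsal root ganglia (DRG) of naive female C57BL/6 mice at 3 months of age. The study deposited 2 samples of this single condition, replicate 1 and replicate 2, so the comparisons below are between cell types within the ganglia and not between treatments. The labels do not give the number of animals behind a sample, and p-values measure only the spread between these 2 samples.

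Cholesterol synthesis starts from acetyl-CoA, runs through mevalonate to farnesyl diphosphate, and then through squalene and lanosterol to cholesterol. Fatty acid synthesis draws on the same acetyl-CoA, and its products are lengthened by elongases, given double bonds by desaturases and activated by joining to coenzyme A. Both branches are switched on by the sterol regulatory element-binding proteins, transcription factors that INSIG proteins hold in the endoplasmic reticulum while sterols are plentiful. In peripheral nerve these pathways are best known from Schwann cells, which build myelin from cholesterol and long fatty acids. Satellite glial cells (SGCs) wrap the somas of sensory neurons and form no compact myelin.

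The 34 genes were read by role. The mevalonate steps comprised 7 genes (*Acat2*, *Hmgcs1*, *Mvk*, *Pmvk*, *Mvd*, *Idi1* and *Fdps*) and the squalene and sterol steps 11 genes (*Fdft1*, *Sqle*, *Lss*, *Cyp51*, *Tm7sf2*, *Msmo1*, *Nsdhl*, *Hsd17b7*, *Ebp*, *Sc5d* and *Dhcr7*). *Insig1*, *Srebf1*, *Srebf2* and *Stard4* regulate or carry sterols. *Acly*, *Acaca*, *Fasn* and *Me1* supply and build fatty acids, *Scd1*, *Scd2*, *Elovl5*, *Elovl6*, *Fads1* and *Fads2* desaturate and elongate them, and *Acsl3* and *Acsbg1* activate them.

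Promoter sequence was examined because the sterol regulatory element-binding proteins act with the factors that bind CCAAT and GC boxes. RefSeq promoters (build GRCm38.p6, from 250 bases before to 50 bases after the annotated start) were at hand for 27 of the 34 genes. A gene was counted where any of its windows held a motif on either strand. The letters CCAAT were present in 23 of the 27 (85.2%), against 41.1% of the 27025 genes in the table. Among genes outside the list that were higher in SGCs the share was 44.2%. The GC box GGGCGG was present in 21 of the 27 (77.8%), against 38.2% of all genes and 64.5% of the other genes higher in SGCs. Among the 41 pathway genes outside the list that were in the table, the CCAAT box was present in 58.5% and the GC box in 73.2%, the latter close to the share of the members. All 9 squalene and sterol genes in the table held both motifs. The sterol regulatory element in the loose form TCACNCCAC matched *Hmgcs1* alone among the members (3.70%) and 1.44% of all genes. A match is a description of these letters and not evidence of binding, and letters outside the window were not read.

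Stretches of 5 of these promoters are printed here, for 5 of the 6 genes that stood highest in SGCs over the other cell types. They run 5′ to 3′ on the strand of the gene. Capitals mark the CCAAT box, which reads ATTGG when it lies on the other strand, the GC box, which reads CCGCCC when it lies on the other strand, and the sterol regulatory element of *Hmgcs1*. The *Acsbg1* stretch is chr9:54661914-54661988 (minus strand) and the *Lss* stretch is chr10:76531419-76531567 (plus strand). The *Mvd* stretch is chr8:122443425-122443582 (minus strand), the *Nsdhl* stretch chrX:72918412-72918520 (plus strand) and the *Hmgcs1* stretch chr13:119690101-119690350 (plus strand). All 5 lie upstream of the annotated transcript.
Acsbg1: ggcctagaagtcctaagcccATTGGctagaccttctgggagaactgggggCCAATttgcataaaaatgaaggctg
Lss: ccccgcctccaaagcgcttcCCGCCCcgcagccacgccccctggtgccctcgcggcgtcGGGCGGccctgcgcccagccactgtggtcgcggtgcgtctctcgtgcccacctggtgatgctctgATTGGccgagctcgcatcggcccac
Mvd: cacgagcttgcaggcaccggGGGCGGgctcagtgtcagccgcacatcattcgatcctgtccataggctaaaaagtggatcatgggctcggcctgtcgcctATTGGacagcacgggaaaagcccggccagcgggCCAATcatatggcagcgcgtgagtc
Nsdhl: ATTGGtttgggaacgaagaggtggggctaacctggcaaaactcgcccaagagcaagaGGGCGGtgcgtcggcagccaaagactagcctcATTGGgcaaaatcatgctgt
Hmgcs1: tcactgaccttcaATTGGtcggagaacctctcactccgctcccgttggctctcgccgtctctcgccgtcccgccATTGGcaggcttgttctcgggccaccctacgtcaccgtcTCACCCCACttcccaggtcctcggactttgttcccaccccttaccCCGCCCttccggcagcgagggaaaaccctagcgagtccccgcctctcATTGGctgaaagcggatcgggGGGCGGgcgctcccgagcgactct
*Acsbg1*, the gene with the largest difference between SGCs and the other types, held 2 CCAAT boxes and no GC box, whereas the 4 cholesterol enzymes held both.

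**Figure D1:**
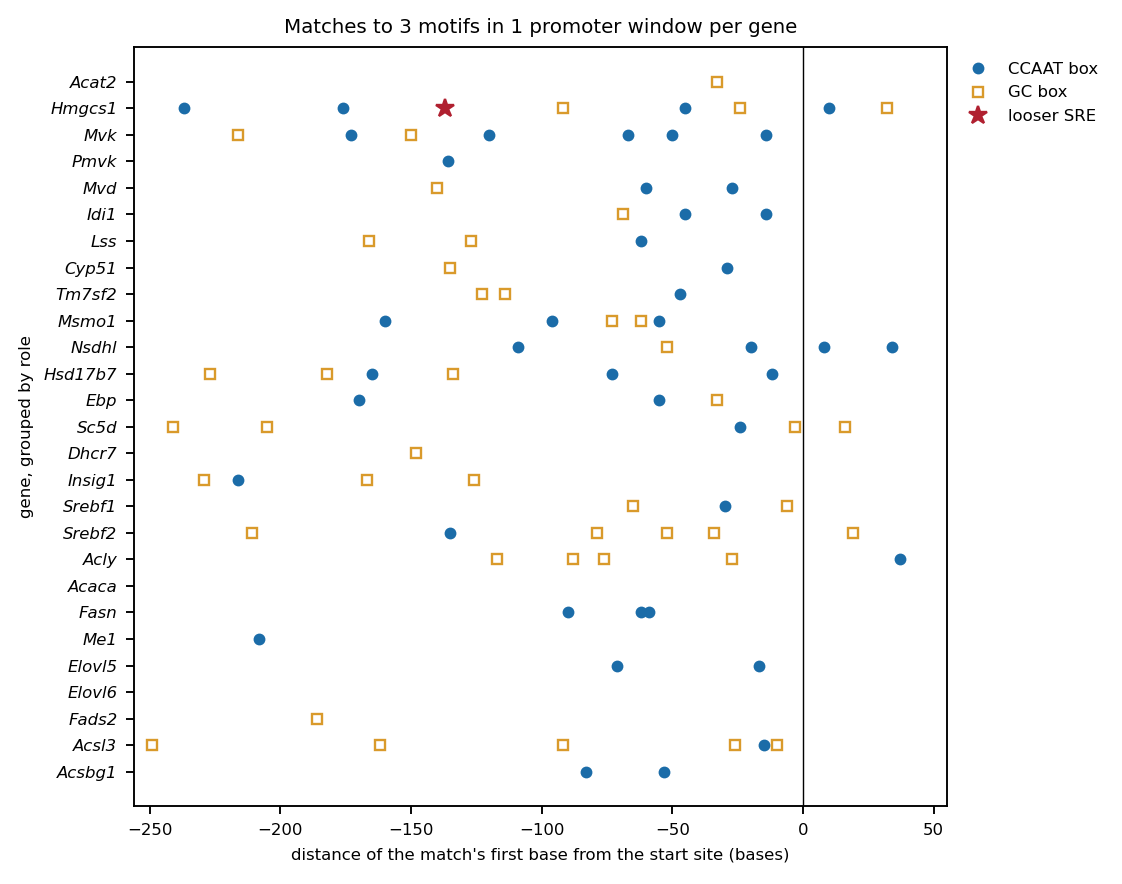
Distance in bases (x axis) from the annotated start to each match to the CCAAT box (blue circles), GC box (open squares) and loose sterol regulatory element (star), in 1 promoter window for each of the 27 genes with sequence, by role. The window holds 250 bases upstream of the start and 50 downstream, so most positions searched lie upstream. *Acaca* and *Elovl6* have no match, and the star belongs to *Hmgcs1*.

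After filtering, 16812 cells remained, with a mean of 3530 genes and 11861 unique molecular identifiers (UMIs) per cell. Of these, 14328 fell in clusters that carried the markers of 8 cell types, and 2484 lay in 4 clusters left without a name. The 8 types were SGCs (6569 cells), myelinating Schwann cells (3264), non-myelinating Schwann cells (1417), fibroblasts (1125), mural cells (733), neurons (437), endothelial cells (418) and macrophages (365). Each type was summed per replicate into 16 profiles of 499314 to 53907415 UMIs, the smallest being neurons. Neurons were shallow, with a median of 850 UMIs per cell against 15572 in SGCs, and 311 of their 437 cells came from replicate 1. Of these neurons, 6 in replicate 1 and 13 in replicate 2 came from a cluster of deep cells. The replicates shared 135 cell barcodes. All 34 genes passed the filter on low counts and were tested among 17369 genes. Levels are UMIs per 1000000 UMIs of a profile with TMM scaling (CPM), given for replicate 1 and then replicate 2.

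SGCs held the highest level of the pathway. The 34 genes together made up 13665 and 13825 CPM in SGCs. Their sum was 4742 and 5063 CPM in myelinating Schwann cells, 4644 and 4730 CPM in non-myelinating Schwann cells, and 5218 and 4202 CPM in neurons. The neuron values spanned those of both types of Schwann cell, and all 3 types lay below SGCs. Macrophages followed with 2758 and 3304 CPM. Fibroblasts (2032 and 2303 CPM) and mural cells (2075 and 2041 CPM) overlapped each other. Endothelial cells were lowest, at 1396 and 1550 CPM. Single genes followed the sum: 31 of the 34 had their highest mean level in SGCs, against 11.6% of all tested genes, and for 30 of them both SGC values lay above every value of the other types, against 7.70% of all tested genes. Endothelial cells were lowest for 25 of the 34, but the share of all genes that were lowest there is not given.

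**Figure D2:**
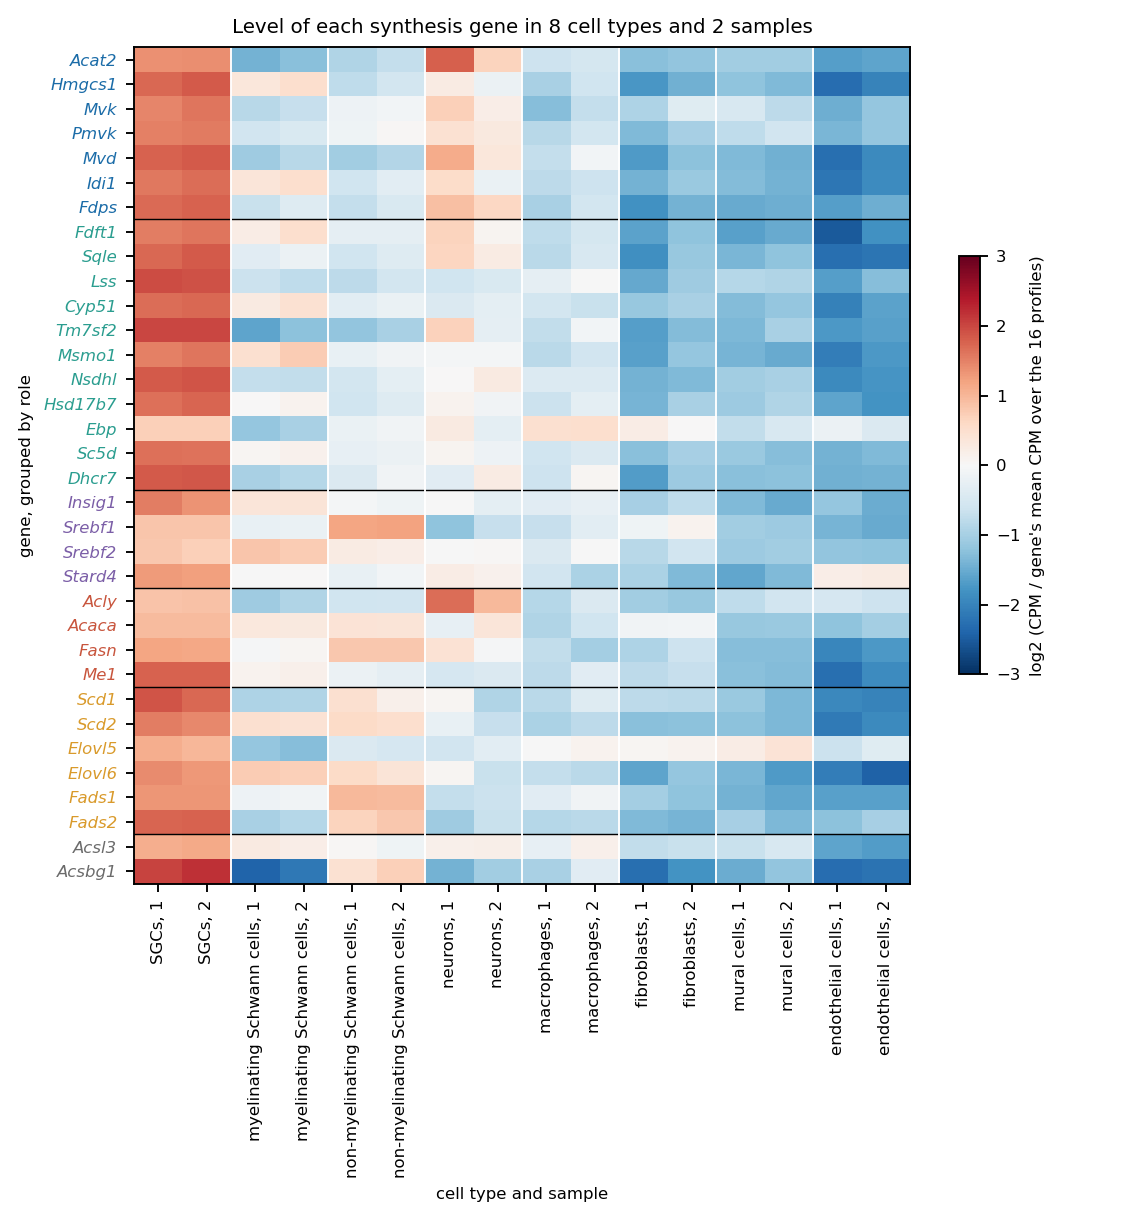
Level of each gene (rows, by role) in each cell type and replicate (columns), as the log2 ratio of its CPM to its mean CPM over the 16 profiles, red above and blue below that mean. SGCs are highest for 31 of the 34 genes, and the exceptions are *Srebf1*, *Srebf2* and *Acly*.

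The mevalonate genes summed to 4227 ± 195 CPM in SGCs (SD, n = 2), against 1713 ± 381 in neurons, 1362 ± 120 in myelinating and 884 ± 98.3 in non-myelinating Schwann cells. *Hmgcs1*, a synthase early in the mevalonate steps, stood at 1799 and 1948 CPM in SGCs, 691 and 776 in myelinating Schwann cells, 320 and 371 in non-myelinating Schwann cells and 111 and 136 in endothelial cells. *Fdps*, which makes farnesyl diphosphate, stood at 1063 and 1120 CPM in SGCs, 610 and 506 in neurons and 206 and 252 in myelinating Schwann cells. Neither gene overlapped between SGCs and any other type. *Acat2*, the thiolase that opens the pathway, did overlap, with 112 and 113 CPM in SGCs and 151 and 68.9 CPM in neurons.

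The squalene and sterol genes summed to 3246 ± 93.0 CPM in SGCs, 1165 ± 122 in myelinating Schwann cells, 1068 ± 83.8 in neurons and 846 ± 55 in non-myelinating Schwann cells (SD, n = 2). *Nsdhl*, a sterol dehydrogenase, was at 277 and 284 CPM in SGCs, 46.7 and 46.2 in myelinating Schwann cells and 52.5 and 62.7 in non-myelinating Schwann cells. *Lss*, which closes the sterol rings, was at 107 and 105 CPM in SGCs, and its next highest level was 23.0 and 27.7 CPM in macrophages. *Tm7sf2*, a sterol reductase, was at 128 and 129 CPM in SGCs, 52.0 and 26.6 in neurons and 10.7 and 13.7 in myelinating Schwann cells. For these 3 enzymes no other type reached the SGC level in either replicate.

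Groups of fatty acid genes had the same leading type by sum, with different orders behind it. The 4 genes of fatty acid synthesis summed to a mean of 1078 CPM in SGCs and 531 in neurons. Non-myelinating (457 CPM) and myelinating Schwann cells (431 CPM) followed. Desaturases and elongases summed to 3943 ± 182 CPM in SGCs, 1901 ± 95.3 in non-myelinating and 1433 ± 20.3 in myelinating Schwann cells (SD, n = 2). *Scd2*, a stearoyl-CoA desaturase, was at 1956 and 1835 CPM in SGCs, 1006 and 953 in non-myelinating and 947 and 920 in myelinating Schwann cells. *Fads2*, the desaturase of polyunsaturated fatty acids, was at 400 and 403 CPM in SGCs, 190 and 209 in non-myelinating and 60.6 and 65.9 in myelinating Schwann cells. Both types of Schwann cell lay below SGCs, and for *Fads2* the myelinating cells overlapped neurons and macrophages. *Acsbg1*, an acyl-CoA synthetase known from brain and steroidogenic tissue, was at 422 and 471 CPM in SGCs, 142 and 168 in non-myelinating Schwann cells and 19.6 and 23.3 in myelinating Schwann cells. Endothelial cells had 21.1 and 22.2 CPM of it.

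Of the 3 exceptions, *Srebf1* and *Srebf2* are transcription factors of the regulator group and *Acly* is an enzyme. *Srebf1*, the regulator tied mainly to fatty acid synthesis, was highest in non-myelinating Schwann cells (114 and 117 CPM) and next in SGCs (89.9 and 89.3 CPM). *Srebf2*, the regulator tied mainly to cholesterol synthesis, was at 193 and 184 CPM in myelinating Schwann cells and 189 and 178 CPM in SGCs, which overlapped. *Acly*, which makes cytosolic acetyl-CoA from citrate, was highest in neurons (268 and 164 CPM) ahead of SGCs (153 and 156 CPM).

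**Figure D3:**
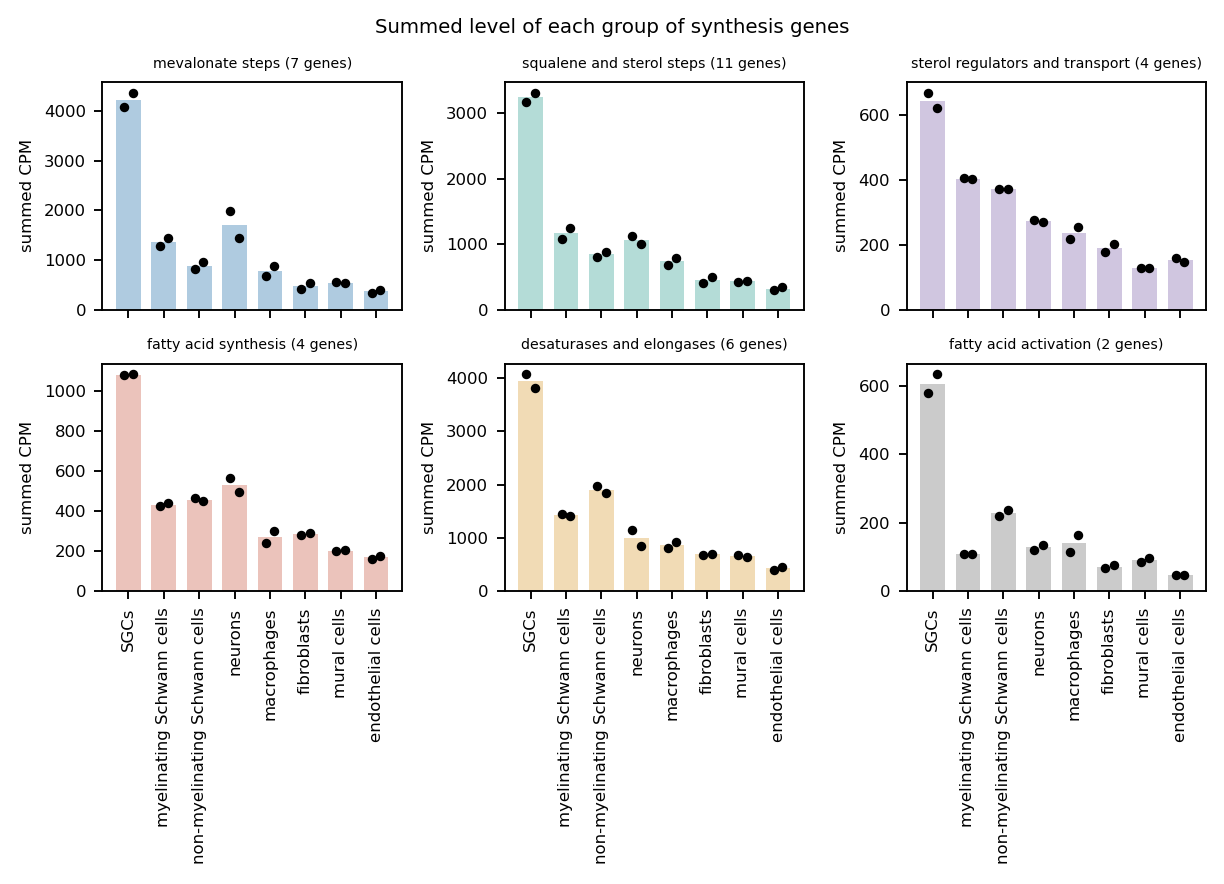
Summed level (CPM, y axis from 0) of the genes of each role in the 8 cell types, with bars for the mean of the 2 replicates and points for each replicate. SGCs have the tallest bar in every role, from 607 CPM for the activating enzymes to 4227 CPM for the mevalonate genes.

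Against the mean of the other 7 types, all 34 genes were higher in SGCs and 0 lower by edgeR's quasi-likelihood test with Benjamini-Hochberg adjustment over all genes. Here and below, the mean of the other types is taken over their log2 levels, each type with equal weight. It lies below the mean of their CPM wherever the types differ, and calls of higher or lower depend on this choice. Of the 17369 genes tested, 30.8% were higher and 21.2% lower in the same comparison. The median log2 fold change of the 34 genes was 2.27, against 0.05 over all genes tested. Medians by role were 2.45 for the activating enzymes, 2.40 for the squalene and sterol steps, 2.36 for the mevalonate steps, 2.12 for desaturases and elongases, 1.51 for fatty acid synthesis and 1.47 for the regulators and *Stard4*. The largest log2 fold changes belonged to *Acsbg1* (3.42, SE 0.10, adjusted p = 1.6e-15), *Tm7sf2* (2.98, SE 0.09, adjusted p = 3.76e-15), *Lss* (2.73, SE 0.07, adjusted p = 1.1e-15) and *Mvd* (2.71, SE 0.09, adjusted p = 1.41e-14). *Nsdhl* (2.67, SE 0.06) and *Hmgcs1* (2.63, SE 0.10) came next. *Ebp*, a sterol isomerase, had the smallest difference (0.93, SE 0.08, adjusted p = 7.48e-09). RNA from empty droplets accounted for an estimated 1.46% and 1.94% of the UMIs of these genes in SGCs, and for up to 15.2% in endothelial cells.

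Genes of the same pathways outside the list moved less uniformly. Of the 48 tested, 27 were higher in SGCs, 11 were lower and 10 did not pass the test, with a median of 0.65. *Elovl2*, an elongase of long polyunsaturated fatty acids, was 3.07 higher on the log2 scale (SE 0.11, adjusted p = 1.99e-14). *Acsl1*, an acyl-CoA synthetase, fell by 5.48 (SE 0.32) and was at 0.352 and 0.341 CPM in SGCs. *Ch25h*, which makes 25-hydroxycholesterol, fell by 3.05 (SE 0.70) and was at 93.3 and 116 CPM in endothelial cells.

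SGCs were then set against myelinating Schwann cells alone, the glia best known for lipid synthesis. In that comparison 33 of the 34 genes were higher in SGCs and 0 lower, against 26.3% and 24.3% of all genes tested. The median log2 fold change was 1.63. *Acsbg1* differed most (4.38, SE 0.17, adjusted p = 1.52e-13), followed by *Tm7sf2* (3.39, SE 0.15), *Dhcr7*, the last reductase of the pathway (2.76, SE 0.14), *Mvd* (2.74, SE 0.14), *Scd1* (2.72, SE 0.18) and *Acat2* (2.71, SE 0.15). The exception was *Srebf2*, with a log2 fold change of -0.04 (SE 0.10, adjusted p = 0.769). By contrast, all 6 sphingolipid genes examined outside the list were lower in SGCs. Among these, *Fa2h* fell by 5.83 (SE 0.16), *Cerk* by 3.93 (SE 0.13) and *Ugt8a*, which starts the synthesis of galactosylceramide, by 3.83 (SE 0.18). Myelinating Schwann cells had 529 and 553 CPM of *Ugt8a*, against 38.2 and 37.7 CPM in SGCs.

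**Figure D4:**
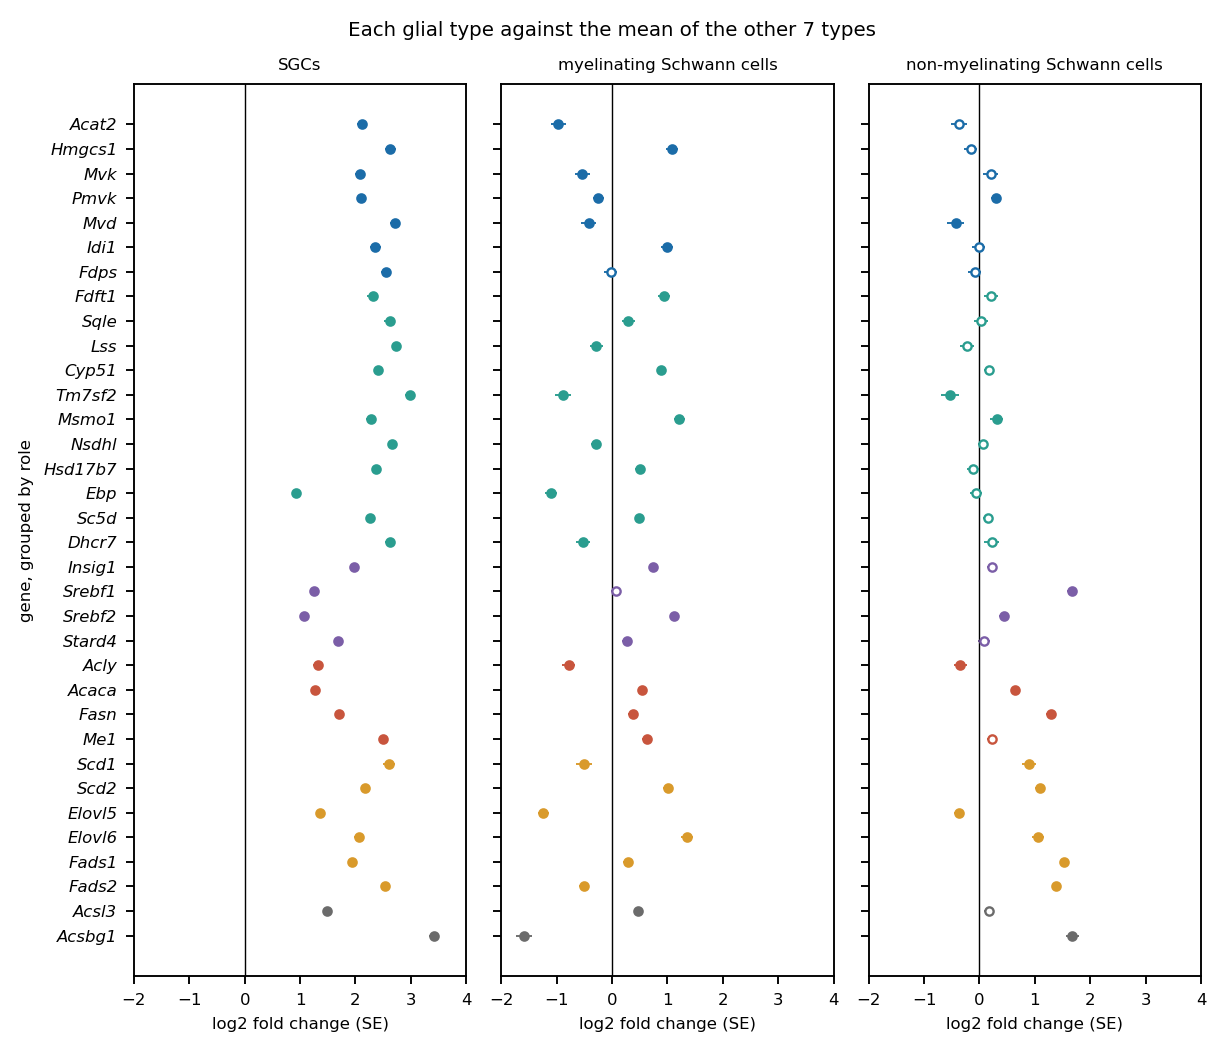
Log2 fold change of each gene with its standard error, for SGCs, myelinating and non-myelinating Schwann cells, relative to the average of the remaining 7 types, with open points for genes that did not pass the test. All 34 points of SGCs lie above 0, from 0.93 to 3.42, while those of the Schwann cells lie on both sides.

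Myelinating Schwann cells divided the list. Against the mean of the other types, 18 of the 34 genes were higher and 14 lower, against 26.3% and 22.3% of all genes tested. The higher genes were led by *Elovl6*, an elongase of saturated chains (1.35, SE 0.10, adjusted p = 1.34e-09), *Msmo1*, a sterol demethylase (1.21, SE 0.10), *Srebf2* (1.12, SE 0.08), *Hmgcs1* (1.08, SE 0.11), *Scd2* (1.01, SE 0.09) and *Idi1* (0.99, SE 0.11). The lower genes were led by *Acsbg1* (-1.59, SE 0.15, adjusted p = 3.82e-08), *Elovl5* (-1.24, SE 0.09), *Ebp* (-1.10, SE 0.10), *Acat2* (-0.97, SE 0.14), *Tm7sf2* (-0.89, SE 0.15) and *Acly* (-0.78, SE 0.11). All 6 sphingolipid genes were higher, with a median of 2.90. The reference includes SGCs, and with all other cells summed into 1 profile, most of whose UMIs are SGC UMIs, 1 gene was higher and 32 were lower. With the cells called doublets removed, 21 were higher and 6 lower.

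In non-myelinating Schwann cells 12 of the 34 genes were higher and 4 lower than the mean of the other types, against 19% and 14.4% of all genes tested. Of the 6 desaturases and elongases 5 were higher, whereas 5 of the 7 mevalonate genes and 9 of the 11 squalene and sterol genes did not pass the test. The higher genes were led by *Acsbg1* (1.68, SE 0.11, adjusted p = 9.28e-10), *Srebf1* (1.67, SE 0.08), *Fads1* (1.53, SE 0.07), *Fads2* (1.38, SE 0.08), *Fasn*, the fatty acid synthase (1.28, SE 0.09), and *Scd2* (1.09, SE 0.09). *Tm7sf2* (-0.53, SE 0.16), *Mvd* (-0.43, SE 0.15), *Elovl5* (-0.37, SE 0.09) and *Acly* (-0.34, SE 0.12) were lower. Against all other cells summed into 1 profile the counts were 3 higher and 30 lower, and with the cells called doublets removed they were 26 higher and 1 lower. The lower count was also 1 without TMM factors and 2 after subtraction of the RNA of empty droplets.

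The leading genes of the direct comparison of the Schwann cells differed in role. Myelinating cells had 10 genes higher and 13 lower than non-myelinating cells, with 11 not passing the test, against 17.1% and 18.9% of all genes tested. The 6 genes that led the higher side act in cholesterol synthesis or its control: *Hmgcs1* (1.09, SE 0.16, adjusted p = 1.64e-05), *Idi1* (0.88, SE 0.16), *Msmo1* (0.79, SE 0.15), *Fdft1*, the squalene synthase (0.64, SE 0.16), *Cyp51* (0.63, SE 0.12) and *Srebf2* (0.59, SE 0.11). The lower side was led by *Acsbg1* (-2.85, SE 0.17, adjusted p = 1.08e-10), *Fads2* (-1.66, SE 0.11), *Srebf1* (-1.40, SE 0.11), *Scd1* (-1.24, SE 0.18), *Fads1* (-1.09, SE 0.09) and *Ebp* (-0.91, SE 0.13). Of these 6, *Ebp* alone is a sterol enzyme. None of the desaturases and elongases was higher in myelinating cells and 4 of the 6 were lower. The mevalonate, squalene and sterol genes went both ways, with 7 of the 18 higher, 6 lower and 5 not passing the test.

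Neuron profiles had more RNA of the early steps of cholesterol synthesis. By estimate, 9.23% and 12.4% of their counts for the 34 genes came from empty-droplet RNA. Against the mean of the other types 15 of the 34 genes were higher and 2 lower, against 18.7% and 19.9% of all genes tested, and the median of all genes in this comparison was -0.29. All 7 mevalonate genes and 5 of the 11 squalene and sterol genes were higher, and 0 of the 6 desaturases and elongases. The largest were *Acat2* (2.07, SE 0.20, adjusted p = 9.37e-08), *Acly* (1.87, SE 0.15), *Mvd* (1.52, SE 0.23), *Fdps* (1.44, SE 0.13), *Sqle*, which oxidises squalene (1.11, SE 0.18), and *Tm7sf2* (1.01, SE 0.28). *Srebf1* (-0.74, SE 0.22) and *Fads2* (-0.43, SE 0.16) were lower. The replicates of neurons were further apart than those of any glial type, with *Mvd* at 90.6 and 53.2 CPM and *Tm7sf2* at 52.0 and 26.6 CPM.

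Neurons formed a shallow and a deep cluster, and the upper limit on UMIs per cell removed most of the deep cells. The profiles kept 305 shallow and 6 deep cells in replicate 1, and 113 shallow and 13 deep cells in replicate 2. With fewer cells, replicate 2 still held more UMIs (543690 against 499314), so the 2 neuron profiles are different mixtures. The part of this in the distance between them was not tested. Without the upper limit on UMIs, the 34 genes summed to 7001 and 6668 CPM without TMM scaling in the shallow cluster (305 and 113 cells) and 4692 and 4740 in the deep cluster (55 and 54 cells). On the same scale the list stood at 9545 and 9047 CPM in empty droplets, nearer to the shallow cluster than to the deep one. How much of the shallow cluster's level came from such RNA was not tested. Counts for neurons moved with the processing: with the cells called doublets removed 25 genes were higher, and against all other cells summed into 1 profile 1 was higher and 19 were lower. *Acsl3* and *Fads2* did not pass the test once the replicate number entered as a block.

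In the cells of vessels and connective tissue the list lay below the mean of the other types. In endothelial cells 32 of the 34 genes were lower and 1 higher, against 23.8% and 25.3% of all genes tested. *Elovl6* (-2.06, SE 0.16, adjusted p = 2.42e-09), *Sqle* (-1.97, SE 0.17), *Fdft1* (-1.90, SE 0.17), *Me1* (-1.86, SE 0.12), *Hmgcs1* (-1.85, SE 0.14) and *Scd2* (-1.82, SE 0.12) led the lower genes. The gene that was higher was *Stard4*, a sterol carrier (0.51, SE 0.10, adjusted p = 0.000389), at 45.9 and 47.3 CPM, close to neurons (47.0 and 43.8 CPM) and below SGCs (96.8 and 93.6 CPM). *Ebp* did not pass the test (-0.23, SE 0.11, adjusted p = 0.104).

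In mural cells 32 genes were lower and 1 higher, against 16% and 21.6% of all genes tested. *Stard4* (-1.39, SE 0.14, adjusted p = 9.27e-08) and *Insig1* (-1.28, SE 0.11) fell most, and *Elovl5* was higher (0.52, SE 0.09). In fibroblasts 30 genes were lower and 3 higher, against 17.6% and 26.3% of all genes tested. *Acsbg1* (-1.29, SE 0.15), *Fdps* (-1.26, SE 0.13) and *Hmgcs1* (-1.21, SE 0.13) led the lower genes, and the higher genes were *Srebf1* (0.31, SE 0.09), *Elovl5* (0.26, SE 0.08) and *Ebp* (0.25, SE 0.09). The higher calls of these 3 cell types were lost against all other cells summed into 1 profile. *Elovl5*, an elongase of polyunsaturated chains, was thus higher in both mural cells (142 and 161 CPM) and fibroblasts (128 and 130 CPM), although SGCs had more of it (259 and 244 CPM).

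Macrophages lay near the mean of the other types. In macrophages 8 genes were lower and 1 higher, against 20.7% and 24.9% of all genes tested. The lower genes were led by *Mvk* (-0.80, SE 0.21, adjusted p = 0.00392), *Acaca*, the carboxylase that commits acetyl-CoA to fatty acids (-0.67, SE 0.12), *Fasn* (-0.62, SE 0.14), *Stard4* (-0.59, SE 0.15), *Scd2* (-0.50, SE 0.11) and *Pmvk* (-0.45, SE 0.12). *Ebp* was higher (0.68, SE 0.12, adjusted p = 8.1e-05). The doublet caller marked 8.17% of the macrophages, against 0.235% to 1.55% of the cells in glial clusters. Clusters of fibroblasts, mural cells and endothelial cells had 3.61% to 9.35%, so the share was not particular to macrophages. Without the marked cells 23 genes were lower in macrophages. The same count, 23, was lower without TMM factors, and 13 were lower with no filter on low counts.

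For *Hmgcs1* and *Acsbg1*, SGCs also had the largest share of detecting cells among the types given here at equal depth. With every cell thinned to 1000 UMIs, *Hmgcs1* was detected in 70.9% and 76.1% of SGCs, 37.8% and 45.4% of myelinating Schwann cells, 20.1% and 26.7% of non-myelinating Schwann cells and 10.2% and 11.3% of endothelial cells. *Acsbg1* was detected in 27.6% and 30.2% of SGCs, 12.1% and 16.4% of non-myelinating Schwann cells and 2.35% and 1.95% of myelinating Schwann cells. Fibroblasts, taken as a type outside the glia, gave 1.27% and 2.04%, and their 95% exact binomial intervals (0.469% to 2.75% and 1.09% to 3.46%) overlapped those of myelinating Schwann cells (1.67% to 3.22% and 1.34% to 2.74%). Median depths before thinning were 15572 UMIs in SGCs, 12474 in fibroblasts and 5441 in myelinating Schwann cells, and unthinned shares of *Hmgcs1* in SGCs were 98.9% and 99.3%. In neurons 220 of 311 and 78 of 126 cells were too shallow to be thinned.

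Within SGCs the sterol genes varied between clusters. The SGCs formed 4 clusters, of which 2 (3047 cells) had more *Hes5* and *Cnmd* than the other 2 (3522 cells). *Cnmd* differed little, at 168 to 208 CPM in the first 2 clusters and 139 to 153 CPM in the others. These are called Hes5-high and Hes5-low here. *Hes5*, a Notch target, was at 127 and 253 CPM in the first state and 28.0 and 51.0 in the second. Of the genes listed for the other state, *Lgr5* was at 238 to 270 CPM in Hes5-high clusters and 297 to 390 in Hes5-low clusters. *Kcnh8* was at 310 to 410 and 422 to 519 CPM. *Slc35f1* did not separate the states, at 1328 to 1605 and 1428 to 1489 CPM. The states were cut from the same cells, so their difference was described without a test, although the 34 genes took no part in the clustering. *Acsbg1* was known to mark SGC subsets of these data when the states were chosen, and its difference is no independent result.

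In both replicates 8 of the 34 genes were at least 1.5-fold higher in Hes5-high SGCs and 0 were lower, against 3.34% and 4.16% of the 12992 genes measured. *Acsbg1* was at 530 and 584 CPM in Hes5-high and 225 and 244 CPM in Hes5-low SGCs, a mean log2 ratio of 1.25. *Tm7sf2* was at 153 and 151 CPM against 76.1 and 78.8 CPM (0.97). The others were *Lss* (0.79), *Mvd* (0.72), *Acat2* (0.68), *Nsdhl* (0.62), *Sc5d* (0.62) and *Acly* (0.59). Counting any difference above 0 in both replicates, 31 of the 34 genes were higher, against 30% of all genes, with a median log2 ratio of 0.47 against -0.06. All 18 mevalonate, squalene and sterol enzymes were among them. The genes that were not were the regulators *Srebf1* (-0.23) and *Srebf2* (-0.04) and the carboxylase *Acaca* (-0.00). Markers of SGCs moved with the states: their sum was 15251 to 20022 CPM in the Hes5-high clusters and 11987 to 13145 CPM in the Hes5-low clusters, and both Hes5-low clusters had non-myelinating Schwann cells as the class with the next most leading markers. Summed markers of non-myelinating Schwann cells were at 7306 to 8130 CPM and 7641 to 8029 CPM, and *Pou3f1*, which led an unnamed cluster, at 3.1 to 22.6 CPM and 19.5 to 53.1 CPM. The part of these differences in the result was not tested. Cells thinned to 5000 UMIs held a median of 38 and 40 UMIs of the 18 sterol enzymes in Hes5-high SGCs and 24 and 26 in Hes5-low SGCs.

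**Figure D5:**
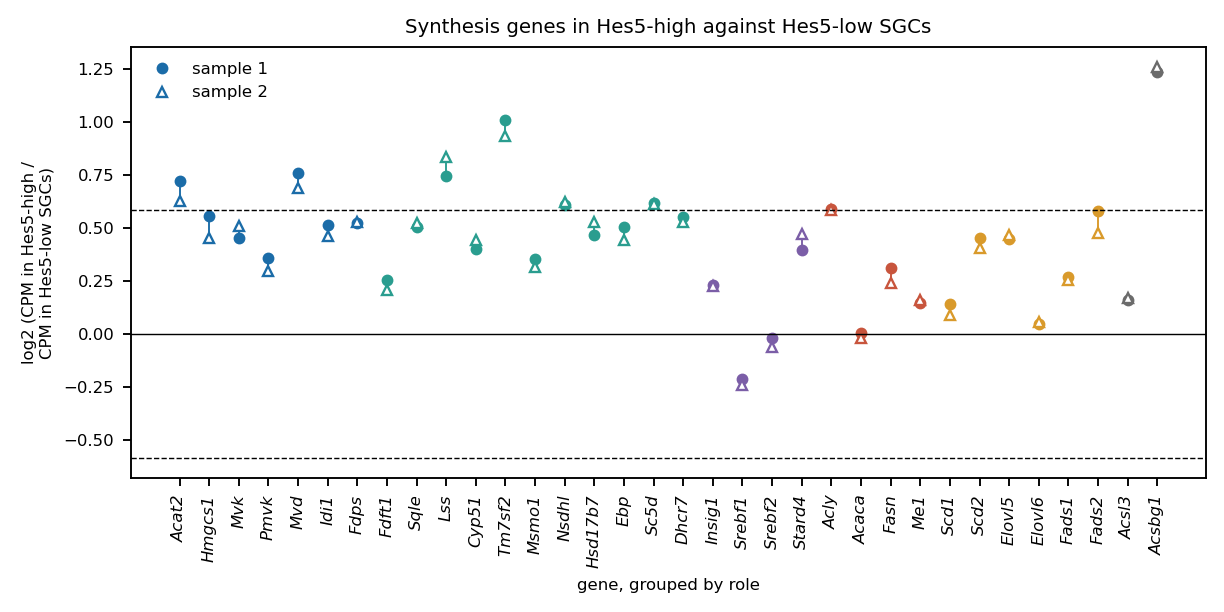
Log2 ratio of CPM in Hes5-high over Hes5-low SGCs for each gene, with filled circles for replicate 1, triangles for replicate 2 and dashed lines at 1.5-fold. The 18 mevalonate, squalene and sterol enzymes all lie above 0 in both replicates, and *Acsbg1* is highest at a mean of 1.25.

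The clusters within a state were not alike. The larger Hes5-high cluster held the most mevalonate RNA (4649 and 4792 CPM) and the smaller held less of it (3617 and 3832 CPM) but the most RNA of desaturases and elongases (5096 and 5009 CPM, against 3764 and 3565 CPM). The 2 Hes5-low clusters had 3024 and 3308 CPM and 2985 and 3297 CPM of mevalonate RNA, overlapping ranges, although stress genes differed between them (1569 and 2056 CPM against 10463 and 10136 CPM). Median depth was 15254 to 19599 UMIs per cell in the Hes5-high clusters and 12674 to 13470 in the Hes5-low clusters, and its part in the CPM ratios was not tested apart from the thinning above. Outside the list, *Acsl6* (1.03), *Acss2*, which makes acetyl-CoA from acetate (0.61), *Cyp46a1* and *Elovl7* were at least 1.5-fold higher in Hes5-high SGCs, and *Elovl4* was lower.

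Reads of some members could have been shared with other genes. Of the 50-base words in the last 1000 bases of their transcripts, 68.7% for *Fdps*, 33.1% for *Acat2*, 31.4% for *Idi1*, 19.5% for *Tm7sf2* and 18.0% for *Acaca* occurred in another annotated gene, so the levels of these 5 are uncertain.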

How the data were processed

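Single-cell libraries were prepared on the 10x Genomics platform from 2 samples of naive DRG, without any treatment groups. The deposited matrices hold raw UMI counts per gene and barcode that the authors made with Cell Ranger (7.1.0 by the matrix header) on mm10, for 1762921 and 1832899 barcodes holding 119101743 and 128668771 UMIs. From these, cells were called along the steps of Cell Ranger, and those with more than 300 genes, under 22.1% mitochondrial UMIs and under 46444 UMIs were kept. Doublets were called (504 cells, 2.87%), and 2 clusters, led by doublets or mitochondrial genes, were removed. Clustering used SCTransform and Seurat 5.3.0 on 3000 variable genes without the genes described here, and clusters were named from markers. Counts were summed by cell type and replicate, genes with 10 counts in at least 2 of the 16 profiles were tested with the quasi-likelihood test of edgeR 4.0.16 across all 17369 genes, and p-values were adjusted by Benjamini-Hochberg at a threshold of 0.05. The tests were checked on simulated counts. There, neurons had the lowest share of set changes recovered and macrophages the highest share of wrong calls. Profiles of the same number come from the same dissociation and so pair by origin, although their deviations correlated weakly (median 0.04 over 28 pairs of types). The replicates were not copies of each other (chi-square 11.2 per degree of freedom over 20288 genes). The members and lists were chosen with earlier results of these data known. Named genes were those with the 6 largest changes in each direction per comparison, and up to 10 per direction between SGC states. Intervals and shares cover counting error only.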

Additional observations from a re-analysis of the deposited data

Results flagged for a closer look

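The comparisons left out 4 clusters whose leading genes matched no list of markers well enough for a name, and in each of them all 34 genes had more than 3 UMIs in both samples, the limit that a count of 0 allows. These clusters held 340350 to 10839095 UMIs per sample. The share of all genes past this limit is not given, so the count says nothing particular about these genes. The cluster led by *Pou3f1* (979 and 891 cells) held 6251 and 6495 CPM of the list without TMM scaling, and *Hmgcs1* was at 583 and 695 CPM. The cluster led by *Lyz2* (142 and 219 cells) held 8039 and 7871 CPM, that led by *Igfbp6* (59 and 111 cells) held 2423 and 2017, and that led by *Cd74* (41 and 42 cells) held 2039 and 2805. Cells of the *Lyz2*-led cluster were shallow, with a median of 1149.5 UMIs. Empty droplets held 9545 and 9047 CPM of the list without TMM scaling. Their part in the values of these clusters was not tested.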

How the results depend on the processing

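All 34 genes stayed higher in SGCs than the mean of the other types, and 33 higher than in myelinating Schwann cells, under every alternative fitted. Between the Schwann cells, 8 to 13 genes were higher and 10 to 14 lower. Between SGC states, 7 to 9 genes passed 1.5-fold upward and 0 downward. The other counts moved. With all other cells summed into 1 profile, in which SGCs hold most UMIs by construction, the counts higher and lower were 1 and 32 in myelinating Schwann cells, 3 and 30 in non-myelinating Schwann cells, 1 and 19 in neurons, and 33 lower in macrophages, and 0 were higher in fibroblasts, mural cells and endothelial cells. That reference turned around *Elovl6* (-0.077), *Msmo1* (-0.35), *Hmgcs1* (-0.74), *Scd2* (-0.47) and *Idi1* (-0.60) in myelinating Schwann cells, *Acsbg1* (-0.79), *Fads2* (-0.34) and *Scd2* (-0.38) in non-myelinating Schwann cells, and *Mvd* (-0.30), *Fdps* (-0.26), *Sqle* (-0.62) and *Tm7sf2* (-0.97) in neurons. It also turned around *Srebf1* (-0.50), *Elovl5* (-0.50) and *Ebp* (-0.20) in fibroblasts, *Elovl5* in mural cells (-0.24) and *Stard4* in endothelial cells (-0.49). With the cells called doublets removed, 6 genes were lower in myelinating Schwann cells, 26 higher and 1 lower in non-myelinating Schwann cells (where *Mvd* turned to 0.081), 25 higher and 1 lower in neurons and 23 lower in macrophages, and the cause was not tested. Without TMM factors, lower counts were 1 in non-myelinating Schwann cells, 0 in neurons and 23 in macrophages. Subtracting the RNA of empty droplets gave 2 lower in non-myelinating Schwann cells and 4 in neurons. DESeq2 gave 0 lower in neurons and 3 higher in macrophages, and no filter on low counts gave 13 lower in macrophages. With the members left in the clustering, 3 were higher in macrophages. With the replicate number as a block, 1 gene was lower in neurons, where *Acsl3* and *Fads2* lost their calls, *Me1* gained one in non-myelinating Schwann cells, *Acly* between the Schwann cells, and *Fdps*, *Elovl6*, *Msmo1* and *Hmgcs1* in macrophages (9 to 13 calls). The block changed no other call. Alternatives chosen after seeing the data also moved counts. Without the upper limit on UMIs, 6 were lower in neurons, 1 higher in fibroblasts and 4 higher in macrophages, and with shared barcodes left out, or with the *Pou3f1*-led cluster counted as SGCs, 1 was lower in neurons. Leaving out a replicate left no residual degrees of freedom, so it gave values and no calls. Neurons, with the fewest UMIs, are limited most by depth.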

Other observations

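Some lipid genes outside the list were highest in cell types other than the glia. *Thrsp*, a regulator of fatty acid synthesis in liver and fat, was at 176 and 170 CPM in endothelial cells, 8.15 higher on the log2 scale than the mean of the other types (SE 0.16, adjusted p = 1.63e-18 by edgeR). *Ch25h* was 6.68 higher (SE 0.18) and *Elovl7*, an elongase of very long chains, 4.49 higher (SE 0.14) in the same cells. Macrophages had 5 of the 8 genes of sterol efflux and turnover higher and 1 lower, where 24.9% of all genes tested were higher and 20.7% lower. Among them *Cyp27a1*, a sterol hydroxylase, was at 95.9 and 85.8 CPM (5.90, SE 0.16), and *Abca1*, which exports cholesterol, at 530 and 501 CPM (2.25, SE 0.11). *Npc2*, which carries cholesterol out of lysosomes, was at 873 and 950 CPM (2.45, SE 0.07). In fibroblasts *Lrp1*, a lipoprotein receptor, was at 410 and 413 CPM (3.07, SE 0.07).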
